A study of Mus musculus with 107 samples.

Results

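The pluripotency factors described here are 10 genes, *Pou5f1*, *Nanog*, *Zfp42*, *Dppa4*, *Dppa5a*, *Esrrb*, *Klf4*, *Tdgf1*, *Utf1* and *Fgf4*, chosen by symbol out of the 27179 mouse genes counted in the series, and all 10 were found in the count tables. They were followed by RNA-Seq of tagged ribosomes (RiboTag) in 23 groups, with 4 libraries of embryonic stem cells and 103 others. RiboTag cells carry the ribosomal protein Rpl22 fused to a hemagglutinin tag, so that antibody to the tag pulls down ribosome-bound RNA of the tagged cells. The study asked how neural progenitor cells (NPC) made from mouse embryonic stem cells (ESC) change in culture and after grafting into spinal cord.

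All samples carry the genotype RiboTag + on the C57BL/6 strain. ESC, NPC and every graft descend from 1 female ESC line, in which a Sox2-cre transgene had recombined the tag, so that replicates of these groups are libraries of 1 line and not of several. ESC (4 libraries) were compared with NPC of the first derivation at passage 5, 15 and 30 (NPC P5, NPC P15 and NPC P30, 4 each) and with NPC of derivations 2 and 3 at passage 15 (NPC P15 D2, 6 libraries, and NPC P15 D3, 4 libraries), which were grown in 100 ng/mL EGF and FGF. Cells differentiated for 4 days in 1 ng/mL EGF and FGF were either left without addition (SPONT) or given 100 ng/mL CNTF, 100 ng/mL IGF-1, fetal bovine serum (FBS) at 1%, 5%, 10% or 20%, or CNTF together with 5% FBS (4 libraries each). NPC passed through a glass pipette were held in medium (NPC media), in the diblock copolypeptide hydrogel DCH (NPC DCH), or in DCH for 4 h first (NPC DCH 4 h), with 5 libraries each. Grafts were recovered at 14 days from uninjured cord (NPC uninjured SC), crush spinal cord injury (NPC SCI) or double crush (NPC dSCI), and from crush injury in the group labelled 5 d (NPC SCI 5d), with 5 libraries each. Grafting was done 2 days after injury; the series description counts the days of recovery from injury and the study's text counts the 5 days from grafting, so that the interval is uncertain by those 2 days. Host astrocytes came from the spinal cord of mice in which the 73.12 Gfap-Cre transgene tags Gfap-lineage cells, healthy (Astro, 9 libraries) or 14 days after crush injury (Astro SCI, 5 libraries). Hosts were young adult mice of both sexes.

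*Pou5f1* (Oct4) and *Nanog* encode the transcription factors at the centre of the network that keeps ESC undifferentiated, and *Esrrb*, *Klf4* and *Zfp42* (Rex1) encode transcription factors of the naive state. *Utf1*, *Dppa4* and *Dppa5a* encode proteins found mainly in pluripotent and germ cells, *Tdgf1* (Cripto) encodes the co-receptor that lets cells respond to Nodal, and *Fgf4* encodes the growth factor by which ESC prompt one another to leave the naive state. Klf4 is also used outside the embryo, by epithelial, endothelial, myeloid and smooth muscle cells, and Esrrb is an orphan nuclear receptor with roles in energy metabolism and in the inner ear. The genes lie at chr17:35506032-35510777 (*Pou5f1*), chr6:122707489-122714633 (*Nanog*), chr8:43295067-43307009 (*Zfp42*), chr16:48283735-48294292 (*Dppa4*), chr9:78367052-78368199 (*Dppa5a*), chr12:86361117-86521628 (*Esrrb*), chr4:55527137-55532475 (*Klf4*), chr9:110939608-110946158 (*Tdgf1*), chr7:139943856-139945112 (*Utf1*) and chr7:144861386-144865245 (*Fgf4*) of GRCm38.p6.

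The promoters of 4 members with different levels outside ESC are printed to set beside those levels. After neural induction *Pou5f1* and *Zfp42* fell to or near 0 counts and *Nanog* kept a trace. *Tdgf1* also fell, and was high in host astrocytes, which do not descend from the ESC line. Each line holds the 250 bases before the annotated start, 5′ to 3′ on the strand of the gene, from RefSeq (GRCm38.p6), at chr17:35505782-35506031 (+), chr6:122707239-122707488 (+), chr8:43307010-43307259 (−) and chr9:110946159-110946408 (−) in the order printed, and capitals mark a match to 1 of 5 motifs searched on both strands.
Pou5f1: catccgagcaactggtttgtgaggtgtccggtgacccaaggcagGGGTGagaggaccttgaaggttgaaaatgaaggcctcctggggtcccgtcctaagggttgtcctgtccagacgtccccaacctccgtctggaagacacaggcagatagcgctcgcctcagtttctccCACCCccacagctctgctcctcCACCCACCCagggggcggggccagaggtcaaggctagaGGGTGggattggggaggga
Nanog: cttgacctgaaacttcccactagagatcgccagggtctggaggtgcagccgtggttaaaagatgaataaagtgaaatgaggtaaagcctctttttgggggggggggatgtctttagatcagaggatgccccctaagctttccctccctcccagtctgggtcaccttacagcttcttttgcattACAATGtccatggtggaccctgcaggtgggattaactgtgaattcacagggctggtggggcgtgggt
Zfp42: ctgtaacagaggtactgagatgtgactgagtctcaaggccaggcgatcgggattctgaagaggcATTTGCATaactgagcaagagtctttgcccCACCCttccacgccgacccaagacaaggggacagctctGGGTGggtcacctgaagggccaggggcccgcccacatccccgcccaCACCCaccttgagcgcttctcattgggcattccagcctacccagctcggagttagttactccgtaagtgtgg
Tdgf1: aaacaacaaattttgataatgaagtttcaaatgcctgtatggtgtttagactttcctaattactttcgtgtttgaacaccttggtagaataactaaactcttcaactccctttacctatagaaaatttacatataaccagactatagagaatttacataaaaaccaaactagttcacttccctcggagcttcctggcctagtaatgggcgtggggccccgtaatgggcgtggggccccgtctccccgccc
The motifs were the octamer ATGCAAAT, the CACCC box CACCC, the estrogen-related receptor element AAGGTCA, the SOX core ACAATG and the TATA box TATAAA, each read in windows from 250 bases before to 50 after the start. The octamer was in 1.74% of 32851 windows of all genes and in 1 of the 8 members that had a window, *Zfp42*. The CACCC box, which overlaps itself in the *Pou5f1* window, was in 57.5% of all windows and in 4 members, *Pou5f1*, *Nanog*, *Zfp42* and *Esrrb*; of the 3 boxes of *Nanog*, 1 runs over the end of the printed bases and 2 lie after them. The SOX core was in 12.6% of all windows and in 3 members, *Nanog*, *Esrrb* and a second start of *Pou5f1*. The receptor element (4.72% of windows) and the TATA box (13.6%) were in none of the 8, and *Dppa4* and *Dppa5a* had no window. These matches are letters in a window and not measured sites.

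The headers of the deposited counts name 2 read sets for 96 libraries, with 30473157 to 147764968 counts each (both mates counted). They name 1 read set for the 11 libraries of NPC P15 D2 and NPC SCI 5d, with 12286240 to 18085106 counts. The 96 were taken as read pairs and the 11 as single reads. This is read from the headers, and the study's methods describe paired-end sequencing with no exception. Levels are given as CPM, the counts of a gene per 1000000 counts of its library. Up to 3 counts in a library is taken as the floor of detection. For single reads it covers counting error alone. For read pairs, with both mates counted, 3 counts are fewer fragments, so the floor does not cover that error in full. Labels were checked with marker sums over 6 genes each: neural progenitor markers (*Nes*, *Sox9*, *Fabp7*, *Pax6*, *Olig2*, *Sox1*) summed to 122 to 138 CPM in ESC and to 3987 to 4249 in NPC P15, and astrocyte markers to 33373 to 40424 in Astro. Grafts also held markers of other cells, which are given beside the results they move with. In bulk libraries, fewer cells that express a gene and less RNA per cell cannot be told apart.

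In ESC all 10 members were abundant, in every library. Per kilobase of exon, *Dppa5a* (1657 CPM per kb) and *Utf1* (1285) stood highest, *Pou5f1* (404), *Tdgf1* (354), *Nanog* (155) and *Esrrb* (144) were intermediate, and *Dppa4* (92.2), *Fgf4* (83.3), *Klf4* (76.5) and *Zfp42* (50.3) were lowest. The mean level of *Pou5f1* was 908 ± 31 CPM (SD, n = 4). The 4 libraries differed little, from 862 to 929 CPM for *Pou5f1*, from 340 to 356 CPM for *Nanog*, and from 839 to 883 CPM for *Esrrb*.

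**Figure D1:**
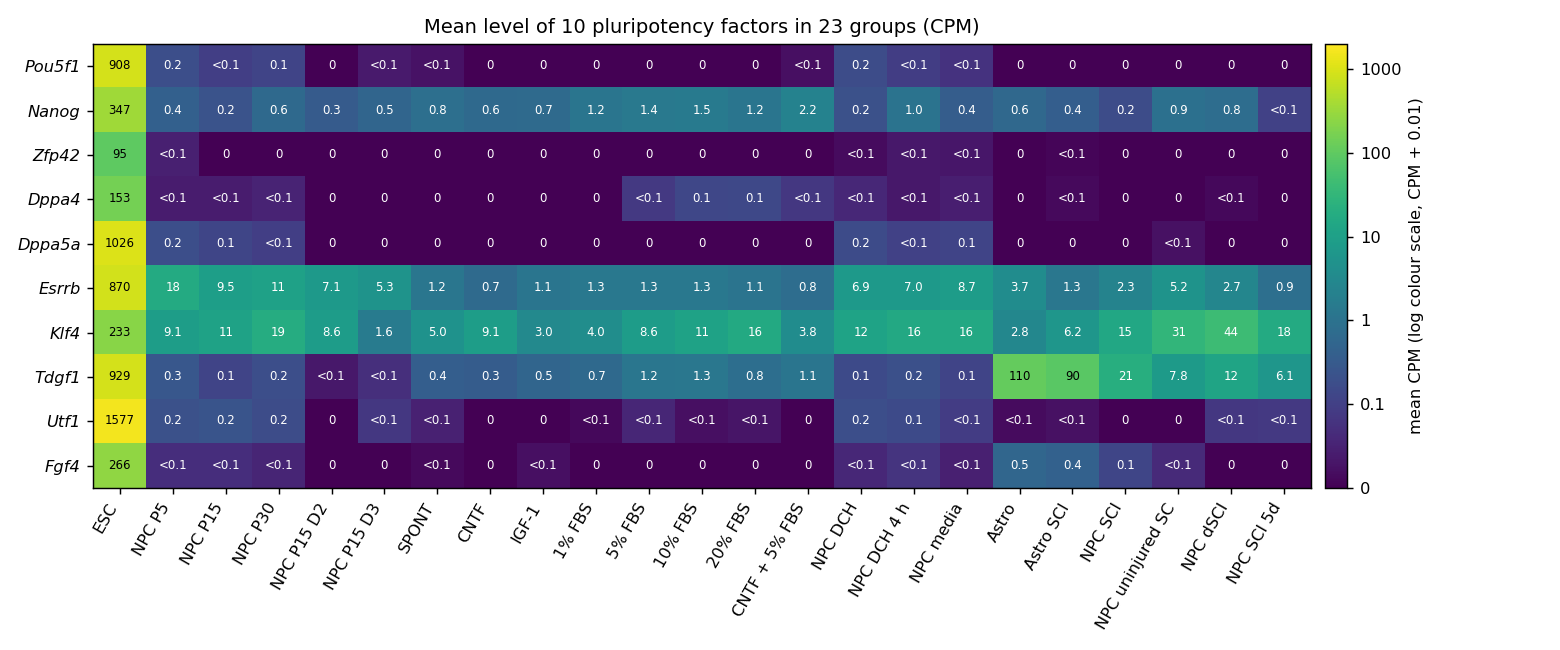
Mean CPM of the 10 members (rows) in the 23 groups (columns), on a logarithmic colour scale with each mean printed in its cell. ESC is the only column in which every member is above 90 CPM; outside it *Esrrb*, *Klf4* and *Tdgf1* reach 17.7, 43.6 and 110.2 CPM, and the other 7 stay at or under 2.21 CPM.

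Neural induction lowered every member. All 10 passed the filter on low counts and were lower in NPC P5, NPC P15, NPC P30, NPC P15 D2 and NPC P15 D3 than in ESC (adjusted p below 0.01, edgeR quasi-likelihood test), with no NPC library reaching an ESC library. Of all genes tested, 34.6%, 34.9%, 34%, 42.9% and 36.6% were lower in the 5 comparisons, in that order (called in either direction, 67.1%, 67.2%, 67.9%, 80.6% and 69.5%), and the median log2FC of all genes lay between −0.10 and −0.02. These comparisons share the 4 ESC libraries. The members were chosen as factors of ESC. Those at or near 0 counts in NPC passed the filter through ESC alone and could only come out lower. The count of 10 is therefore not a test of the set against all genes.

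*Klf4* and *Esrrb* fell least. *Klf4* was 224, 242, 240 and 228 CPM in the 4 ESC libraries and 13.1, 10.9, 10.7 and 10.3 in those of NPC P15 (log2FC −4.46 ± 0.09 SE, adjusted p 4.3e-12). NPC P15 thus kept 4.82% of the ESC mean of this factor. *Esrrb* was 9.30, 11.4, 11.0 and 6.14 CPM in NPC P15 (log2FC −6.59 ± 0.16, adjusted p 2.7e-11), or 1.09% of its ESC mean. Across the 5 NPC groups the log2FC against ESC ran from −7.28 to −3.74 for *Klf4* and from −7.48 to −5.75 for *Esrrb*.

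The other 8 left traces. In NPC P15, *Nanog* was 0.325, 0.219, 0 and 0.337 CPM (log2FC −10.71 ± 0.26, adjusted p 2.0e-11) and *Tdgf1* was 0.0751, 0.129, 0.155 and 0.0899 CPM (log2FC −13.07 ± 0.10, adjusted p 8.0e-15). Both were far under every ESC library. *Zfp42* had 5946 to 8160 counts per ESC library and 0 in all 4 NPC P15 libraries. With NPC P15 set at the floor of 3 counts per library, it was 1404-fold lower than the ESC mean. For read pairs this is not a strict lower bound. *Zfp42* was the only member at or under the floor in every one of the 103 libraries outside ESC, which held for 6 of the 8896 genes with at least 10 CPM in ESC. *Nanog*, *Zfp42* and *Tdgf1* have processed pseudogenes, and *Pou5f1* overlaps the antisense gene Gm19553 where strand-specific counting is not stated, so the origin of a few reads of these genes is uncertain.

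The traces differed between cultures. *Pou5f1* had 4, 20, 24 and 10 counts in NPC P5, 5, 6, 9 and 3 in NPC P15, and 4, 6, 8 and 8 in NPC P30. Every one of these 12 first-derivation libraries held some, and 11 of them were above the floor. NPC P15 D2 had 0 in all 6 libraries, at least 4077-fold under the ESC mean at their lower depth, and NPC P15 D3 had 0, 0, 2 and 2. *Utf1* had at least 1 count in 12 of 12 first-derivation libraries against 2 of 10 libraries of derivations 2 and 3, and *Dppa5a* in 12 of 12 against 0 of 10. Of those 10, the 6 of NPC P15 D2 are shallower (13473855 to 18085106 counts), so a trace is more easily missed in them. NPC P15 D3, at a depth nearer the first derivation, had 3, 10, 0 and 0 counts of *Utf1* and 0 of *Dppa5a* in all 4. In NPC P5 the trace was 0.0192% of the ESC mean for *Pou5f1*, 0.0197% for *Zfp42* and 0.0172% for *Dppa5a*. It was 0.0098% for *Dppa4* and 0.119% for *Nanog*. Whether such counts are RNA made in NPC or come from the handling of libraries was not tested.

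The pipetted NPC resembled the first derivation in this: *Pou5f1* was counted in 14 of 15 libraries (up to 25 counts), *Utf1* in 15 and *Dppa5a* in 13. With so few counts these members did not enter the test between NPC P15 D2 or NPC P15 D3 and NPC P15. When all groups of the culture experiment were fitted together, ESC included, 10 members were tested, the low ones passing the filter through ESC. In that fit *Dppa5a* and *Fgf4* were called lower in NPC P15 D3 beside *Klf4* and *Esrrb*. They had 7, 14, 10 and 2 and 2, 2, 4 and 2 counts in NPC P15 against 0, so these 2 calls add no support for a difference between derivations.

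**Figure D2:**
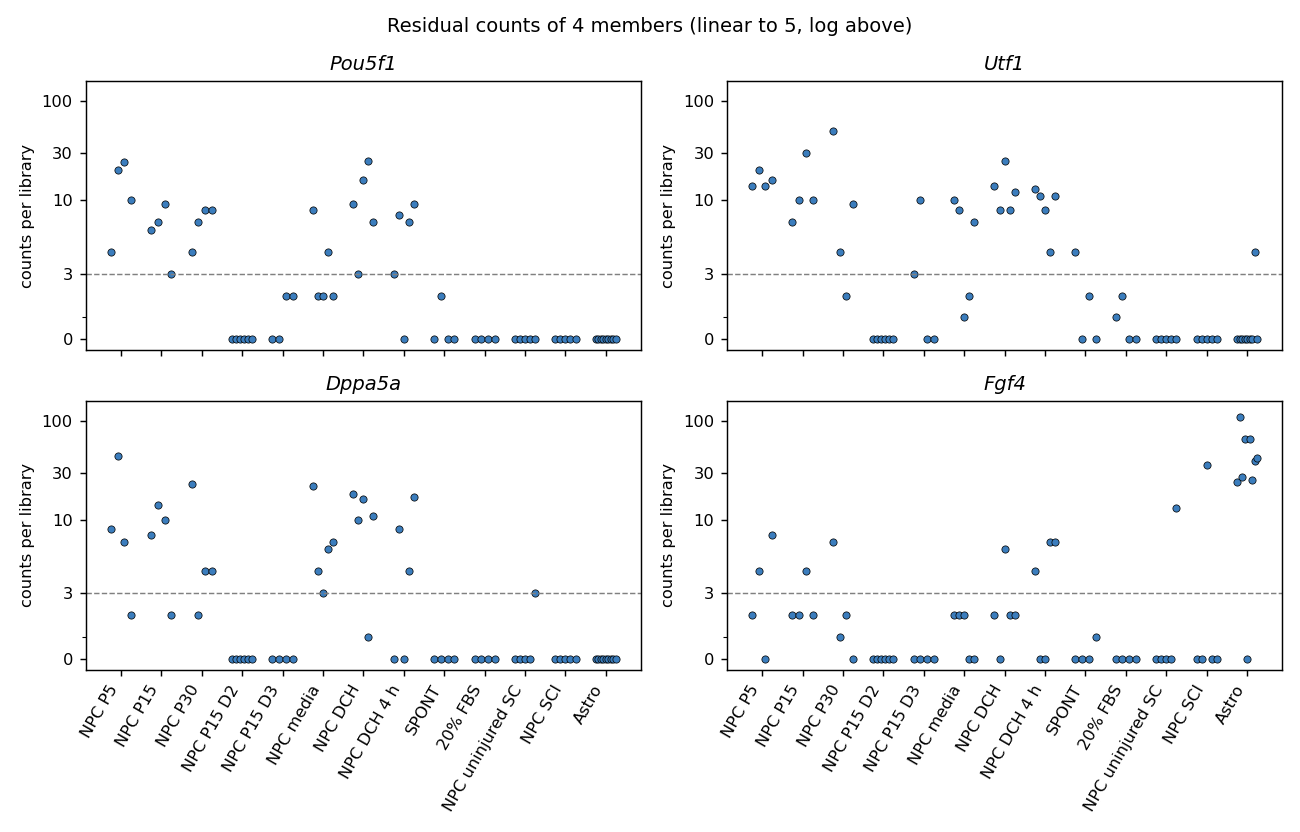
Counts per library (linear to 5, logarithmic above) of *Pou5f1*, *Utf1*, *Dppa5a* and *Fgf4* in 13 groups, 1 point a library, with the floor of 3 counts dashed. First-derivation and pipetted NPC libraries carry up to 50 counts, NPC P15 D2, at lower depth, has 0 of all 4 genes, and *Fgf4* reaches 110 counts in healthy host astrocytes.

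Among NPC cultures, *Klf4* and *Esrrb* varied with passage and derivation. In NPC P30 against NPC P5, *Esrrb* was lower and *Klf4* higher: 2 of the 5 members tested passed, where 35.5% of all genes did. The *Esrrb* mean was lowest at passage 15 (9.47 CPM, against 10.9 in NPC P30), so it did not fall steadily. The *Klf4* mean of NPC P15 (11.3 CPM) lay between those of NPC P5 and NPC P30. *Esrrb* was 17.7, 13.8, 20.3 and 18.8 CPM in NPC P5 and 12.1, 9.12, 8.78 and 13.4 in NPC P30 (log2FC −0.72 ± 0.16, adjusted p 0.0011). No NPC P30 library reached the lowest of NPC P5. *Klf4* was 17.2, 6.11, 6.44 and 6.44 CPM in NPC P5 and 18.7, 23.2, 15.3 and 18.2 in NPC P30 (log2FC 1.03 ± 0.26, adjusted p 0.0029). The groups overlapped through NPC P5 replicate 1; without it the log2FC was 1.56 (adjusted p 4.4e-07), and the call was lost without NPC P5 replicate 2, 3 or 4 or NPC P30 replicate 2 (adjusted p 0.0123 to 0.0146) and with the DESeq2 test (adjusted p 0.0223).

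Derivation 3 had the least *Klf4* of all NPC. It was 2.18, 1.93, 1.10 and 1.31 CPM there against 10.3 to 13.1 in NPC P15 (log2FC −2.75 ± 0.22, adjusted p 4.5e-07), and 2 of 3 members tested were called against 48% of all genes. The other was *Esrrb* at 6.66, 5.98, 4.58 and 3.82 CPM (log2FC −0.81 ± 0.22, adjusted p 0.0073), whose range overlapped that of NPC P15. The *Esrrb* call was lost when any 1 of 6 libraries was left out, namely NPC P15 replicates 1 to 3 or NPC P15 D3 replicates 2 to 4 (adjusted p 0.0113 to 0.0259). In derivation 2, 1 of 2 members tested passed, against 55.9% of all genes: *Klf4* was 7.82 to 9.76 CPM with a median of 8.47 over 6 libraries (log2FC −0.39 ± 0.12, adjusted p 0.0061). All 6 were under NPC P15, but leaving out NPC P15 replicate 1 or any 1 of NPC P15 D2 replicates 2 to 6 moved the adjusted p to between 0.0107 and 0.0272. The call was also lost without a filter on low counts (adjusted p 0.0131) and with all groups in 1 fit (adjusted p 0.133). All NPC P15 D2 libraries were taken as single reads and all NPC P15 libraries as read pairs, so that read type, depth and derivation cannot be told apart.

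The 20 other genes of the pluripotency network fell with the members. All 20 were lower in each of the 5 NPC groups than in ESC, with a median log2FC of −10.01 in NPC P15 against −0.10 for all genes. They too were chosen as genes of ESC, and those near 0 counts in NPC could only come out lower. *Eras* (44.1 CPM in ESC, 0 in NPC P15) and *Dppa3* (39.9 and 0), a germ line factor, were among the lowest, and *Sox2*, which NPC also use, fell least, from 755 to 335.9 CPM (log2FC −1.26 ± 0.03, adjusted p 4.7e-11). Among 12 genes of primed pluripotency and early lineages, 11 were tested in NPC P15, where 2 were higher and 7 lower, against 67.2% of all genes called. *Pou3f1*, a POU factor of neural precursors, rose from 61.7 to 1569 CPM (log2FC 4.58 ± 0.06, adjusted p 4.9e-13). Between NPC P5 and NPC P30, *Nr0b1*, a naive-state nuclear receptor, rose from 5.73 to 35.7 CPM (log2FC 2.62 ± 0.15, adjusted p 1.4e-11).

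Genes of the Nodal and FGF pathways were called in both directions in NPC P15 against ESC, where 67.2% of all genes were called. The counts of these 2 lists are to be read beside that share. *Nodal*, the ligand that needs Tdgf1, went from 111 CPM in ESC to 0.0142 in NPC P15 (log2FC −12.78 ± 0.22, adjusted p 1.9e-12), and of the 12 Nodal pathway genes 10 were tested, 3 being higher and 6 lower. Its receptor gene *Acvr2a* was higher, 30.7 against 6.35 CPM (log2FC 2.19 ± 0.19, adjusted p 8.3e-07). Of 12 FGF receptors and feedback genes, 7 were higher and 2 lower; *Spry1*, a feedback inhibitor of FGF signalling, was among the higher ones (log2FC 3.97 ± 0.10, adjusted p 2.2e-11).

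On differentiation for 4 days without addition, *Esrrb* fell again. It was 1.32, 1.48, 1.22 and 0.830 CPM in SPONT against 6.14 to 11.4 in NPC P15 (log2FC −2.83 ± 0.28, adjusted p 5.1e-06). All SPONT libraries were below all NPC libraries of the 5 groups, whose lowest was 3.82 CPM. With derivation 2 or 3 as the reference the *Esrrb* log2FC was −2.49 or −2.05, and it was called in both. *Klf4* was 4.34, 3.06, 6.53 and 6.14 CPM in SPONT (log2FC −1.04 ± 0.23, adjusted p 0.0021), so that 2 of 4 members tested were lower where 57.2% of all genes were called. The direction for *Klf4* depended on the NPC it was set against: with NPC P15 D2 the log2FC was −0.72 (adjusted p 0.0018) and with NPC P15 D3 it was 1.69 in favour of SPONT (adjusted p 1.2e-04). The labels do not give the derivation of the differentiated cells.

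*Tdgf1* and *Nanog* lay above NPC P15 in every SPONT library without passing the test against it. *Tdgf1* was 0.339, 0.450, 0.369 and 0.373 CPM (adjusted p 0.0135) and *Nanog* 1.13, 0.595, 0.796 and 0.871 CPM (adjusted p 0.0563). *Tdgf1* passed against NPC P15 D3 (log2FC 3.24, adjusted p 2.3e-04) and *Nanog* against NPC P15 D2 (log2FC 1.40, adjusted p 0.0031), and both passed against NPC P15 with all groups in 1 fit. *Pou5f1* had 2 counts in 1 of the 4 SPONT libraries and 0 in the rest. Over the 32 differentiated libraries *Pou5f1* was counted in 2, *Dppa5a* and *Zfp42* in none, and each of the 3 stayed at or under the floor throughout.

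Of the factors added to this medium, CNTF went with more *Klf4*, and with IGF-1 no member was called. *Klf4* was 8.91, 9.07, 8.52 and 9.81 CPM with CNTF (log2FC 0.88 ± 0.20 against SPONT, adjusted p 0.0068), above every SPONT library, and it was the 1 member of 4 tested that passed, against 19.9% of all genes. The call was lost without SPONT replicate 1 or any 1 of the CNTF libraries (adjusted p 0.0170 to 0.0234). With IGF-1 *Klf4* was 2.98, 3.13, 2.98 and 3.09 CPM (adjusted p 0.0376), and 0 of 4 members were called by edgeR against 6.55% of all genes; 1 member, *Klf4*, had an unadjusted p below 0.05, and DESeq2 called 0. With 1% FBS 0 of 4 were called by edgeR against 8.78% of all genes, again with 1 member, *Tdgf1*, at an unadjusted p below 0.05 and 0 by DESeq2. The comparisons with SPONT share its 4 libraries.

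*Klf4* was higher at the upper serum doses. Its mean was 5.02 ± 1.62 CPM (SD, n = 4) in SPONT, 4.01 ± 0.753 at 1% FBS, 8.59 ± 1.75 at 5%, 11.4 ± 0.429 at 10% and 16.4 ± 1.38 at 20%. It was higher than in SPONT at 10% FBS (log2FC 1.2 ± 0.21, adjusted p 7.2e-04) and at 20% FBS (log2FC 1.67 ± 0.20, adjusted p 2.8e-05), while at 5% all 4 libraries lay above SPONT with an adjusted p of 0.0212. The libraries at 20% were 17.5, 16.4, 17.3 and 14.5 CPM and none overlapped those at 10%, which were 11.1, 11.5, 10.9 and 11.9.

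*Tdgf1* was also higher with serum at 5% and 10%, at a low level. *Tdgf1* was 1.53, 1.16, 0.934 and 1.13 CPM at 5% FBS (log2FC 1.64 ± 0.25, adjusted p 4.5e-04) and 1.53, 1.77, 0.980 and 0.839 at 10% (log2FC 1.75 ± 0.30, adjusted p 6.5e-04), above all SPONT libraries. At 20% it was 0.513, 0.948, 0.636 and 1.10 CPM, not called (adjusted p 0.0118). In all, 1, 2 and 1 of the 4 members tested were higher at 5%, 10% and 20% FBS, where 34.1%, 45% and 55.5% of all genes were called.

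*Dppa4* gave the clearest split of the low members. It had 10, 2, 5 and 3 counts at 5% FBS, 7, 6, 11 and 12 at 10%, 7, 6, 8 and 15 at 20%, and 4, 7, 4 and 3 with CNTF and 5% FBS. All 16 libraries with at least 5% FBS held counts, 13 of them above the floor, and all 16 with less or no serum held 0. It did not pass the filter on low counts; without that filter its adjusted p against SPONT was 0.0136 at 5%, 0.0021 at 10% and 0.0015 at 20% FBS. *Nanog* was 1.29, 1.67, 1.24 and 1.31 CPM at 5% FBS (adjusted p 0.0329) and 1.86, 1.2, 1.82 and 1.2 at 10% (adjusted p 0.0177), neither called.

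**Figure D3:**
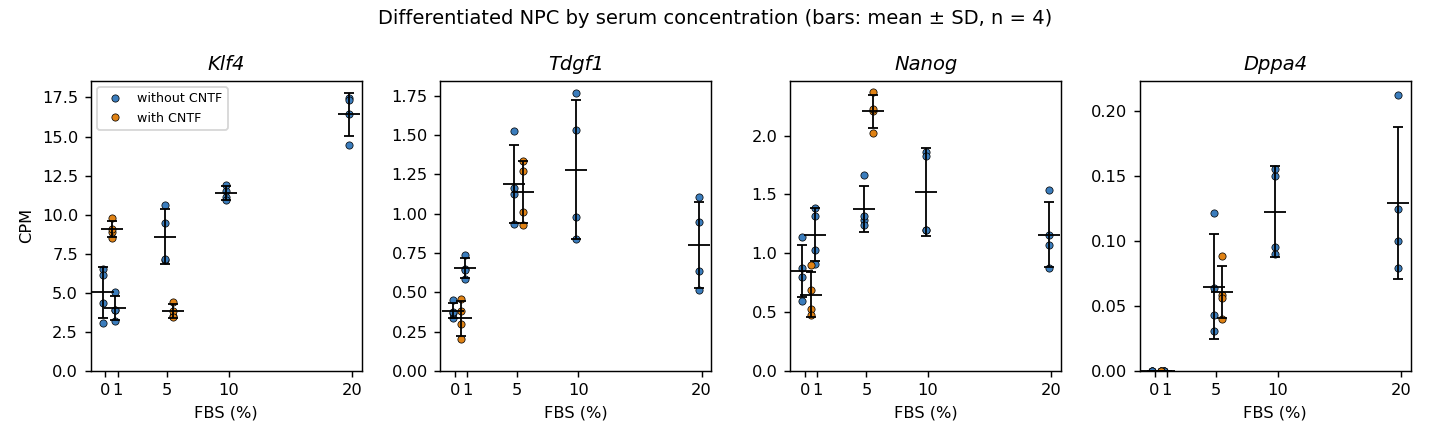
CPM of *Klf4*, *Tdgf1*, *Nanog* and *Dppa4* in differentiated NPC against FBS concentration in percent (0 is no serum), 1 point a library, with mean and SD over 4 libraries, in blue without and in orange with CNTF. *Klf4* reaches 16.4 CPM at 20% FBS, its 5% level of 8.59 CPM is 3.81 with CNTF, and *Dppa4* is 0 in every library below 5% FBS.

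With CNTF and serum together, *Klf4* went the other way. It was 3.50, 3.85, 3.46 and 4.41 CPM with CNTF and 5% FBS against 9.46, 7.08, 7.19 and 10.6 with 5% FBS alone (log2FC −1.25 ± 0.16, adjusted p 3.8e-04), with no overlap. This was 1 of 4 members tested, against 23.3% of all genes called. *Nanog* had its highest group mean outside ESC here, 2.21, 2.02, 2.22 and 2.37 CPM, above all 4 libraries of 5% FBS, with an adjusted p of 0.0101. *Tdgf1* was 1.34, 1.01, 0.929 and 1.27 CPM, overlapping the libraries with 5% FBS alone.

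Marker sums moved with serum too. The 6 fibroblast markers (*Col1a1*, *Col1a2*, *Dcn*, *Lum*, *Pdgfrb*, *Col3a1*) summed to 12.4 to 15.8 CPM in SPONT, 22.5 to 124 at 1% FBS, 150.4 to 539 at 5%, 200.6 to 358 at 10%, 454 to 546 at 20%, and 20.6 to 27 with CNTF and 5% FBS. The 6 endothelial markers (*Pecam1*, *Cdh5*, *Cldn5*, *Kdr*, *Tek*, *Flt1*) summed to 0.747 to 1.53 CPM in SPONT and 64.6 to 69.9 at 20% FBS. Their part in the *Klf4* levels was not tested. At 20% FBS against SPONT 55.5% of all genes were called. Of 12 other KLF genes, 5 were higher and 2 lower there (median log2FC −0.05, all genes −0.03), with *Klf5* rising from 0.862 to 11.0 CPM (log2FC 3.62 ± 0.21, adjusted p 8.1e-08). Among 10 immediate early genes, which growth signals induce within minutes, 7 were higher and 1 lower, *Dusp1* from 4.03 to 75.5 CPM (log2FC 4.19 ± 0.20, adjusted p 1.6e-08).

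Among the pipetted NPC no member was called. *Klf4* was 17.8, 12.2, 14.3, 14.4 and 19.1 CPM in NPC media, 11.8, 10.1, 13.1, 14.4 and 10.1 in NPC DCH and 12.8, 20.2, 15.3, 17.7 and 13.8 in NPC DCH 4 h. The 3 groups overlapped. By edgeR 0 of 3 members tested were called for NPC DCH against NPC media (4.32% of all genes), with *Klf4* at an unadjusted p below 0.05, and 0 of 4 for NPC DCH 4 h against NPC DCH (0.32% of all genes), again with *Klf4* at an unadjusted p below 0.05. DESeq2 called 0 in both. *Nanog* had 2, 2, 4, 79 and 221 counts in NPC DCH 4 h, so that 2 of 5 libraries carried nearly all of them.

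In host astrocytes *Tdgf1* was the member that stood out. It was 99.0 to 132 CPM with a median of 109 in the 9 Astro libraries, a mean of 110.2 ± 10.8 CPM (SD, n = 9), or 42.0 CPM per kb where ESC had 354. No NPC or differentiated library reached 2 CPM. After crush injury it was 61.8, 58.4, 90.5, 109 and 130 CPM, overlapping the healthy libraries (adjusted p 0.0330, not called). *Fgf4* was counted in 8 of 9 Astro libraries, 24 to 110 counts in those 8, and in 5 of 5 Astro SCI libraries with 36 to 67 counts, a mean of 0.548 and 0.434 CPM. *Pou5f1* and *Dppa5a* had 0 counts in all 14 host libraries.

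After crush injury *Esrrb* was lower and *Klf4* higher in host astrocytes. *Esrrb* was 2.27 to 4.60 CPM with a median of 3.87 in Astro and 1.11, 0.910, 0.752, 1.96 and 1.62 in Astro SCI (log2FC −1.73 ± 0.26, adjusted p 2.2e-05), with no overlap. *Klf4* was 1.95 to 3.68 CPM with a median of 2.80 in Astro and 6.54, 8.50, 5.94, 6.84 and 3.31 in Astro SCI (log2FC 0.93 ± 0.19, adjusted p 5.9e-04). Only Astro SCI replicate 5 lay inside the healthy range. These were 2 of 5 members tested, against 41.1% of all genes. With all groups in 1 fit the *Esrrb* call was lost (log2FC −1.75, adjusted p 0.0495).

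Other genes and cell markers differed in the same comparison, in which 41.1% of all genes were called. Of the 12 other KLF genes, 5 were higher and 3 lower, with *Klf9* falling from 340 to 75.4 CPM (log2FC −2.37 ± 0.18, adjusted p 1.2e-08), and 8 of 10 immediate early genes were higher, *Junb* from 6.58 to 64.3 CPM (log2FC 3.12 ± 0.13, adjusted p 1.1e-11). *Acvr1c*, a Nodal receptor gene, fell from 22.4 to 1.70 CPM (log2FC −3.93 ± 0.42, adjusted p 4.9e-07). Summed over 6 genes each, endothelial markers were 5.36 to 9.02 CPM in Astro and 11.5 to 17.6 in Astro SCI, myeloid markers (*Aif1*, *Itgam*, *Cx3cr1*, *Ptprc*, *Csf1r*, *Cd68*) 8.98 to 17.4 and 85.6 to 363, and fibroblast markers 149 to 253 and 614 to 1410. The neuron sum was 265 to 373 CPM in Astro and 272 to 549 in Astro SCI. No marker of the 4 lists was at 0 throughout, and their part in the *Esrrb* and *Klf4* differences was not tested.

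Grafted NPC had more *Tdgf1* than cultured NPC in every environment. It was 8.55, 8.10, 5.01, 5.08 and 12.3 CPM in uninjured cord, 19.7, 37.5, 22.9, 14.3 and 11.5 in NPC SCI, 5.70, 7.81, 22.4, 18.9 and 6.35 in NPC dSCI and 5.78, 4.28, 4.82, 5.50 and 9.98 in NPC SCI 5d, against at most 0.155 in NPC P15. All 20 graft libraries lay above every culture library other than ESC. The log2FC against NPC P15 was 6.13 ± 0.64 in uninjured cord (adjusted p 8.8e-06), 7.82 ± 0.46 in NPC SCI (5.5e-08), 6.98 ± 0.64 in NPC dSCI (3.4e-06) and 5.80 ± 0.52 in NPC SCI 5d (4.1e-06). These comparisons share the NPC P15 libraries, and with derivation 2 or 3 as the reference the calls stood, at log2FC 7.09 to 10.72.

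*Klf4* was higher in some grafts. It was 25.2, 39.9, 10.6, 43.3 and 36.7 CPM in uninjured cord (log2FC 1.51 ± 0.38 against NPC P15, adjusted p 0.0045) and 49, 48.9, 49.7, 53.7 and 16.7 in NPC dSCI (log2FC 2.17 ± 0.23, adjusted p 9.2e-06), the highest mean outside ESC. In uninjured cord replicate 3 lay inside the NPC P15 range, and the call was lost without replicate 2 or 4 of that group or NPC P15 replicate 2, 3 or 4 (adjusted p 0.0121 to 0.0156). In NPC SCI it was 13.4, 12.5, 10.0, 15.6 and 23.3 CPM (adjusted p 0.0453) and in NPC SCI 5d 12.4, 19.1, 32.3, 12.9 and 11.2 (adjusted p 0.0597), neither called. With derivation 2 or 3 as the reference *Klf4* was also called in these 2 groups. Those derivations had less *Klf4* than NPC P15 (means 8.60 and 1.63 against 11.3 CPM). NPC P30, with a mean of 18.8 CPM, was not used as a reference. The means of NPC SCI (14.9 CPM) and NPC SCI 5d (17.6) lay under it. Pipetted NPC had means of 11.9 to 16.0 CPM and were not used either.

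*Esrrb* was lower than in NPC P15 in NPC SCI 5d and, less firmly, in NPC SCI. It was 0.407, 0.402, 0.514, 2.26 and 0.708 CPM in NPC SCI 5d (log2FC −3.34 ± 0.60 against NPC P15, adjusted p 5.3e-04), or −4.16 without replicate 4, and 2.09, 4.14, 0.593, 3.03 and 1.70 in NPC SCI (log2FC −1.72 ± 0.50, adjusted p 0.0099). Both groups lay under all NPC P15 libraries. The NPC SCI call was lost without any 1 of the 4 NPC P15 libraries or NPC SCI replicate 1, 4 or 5 (adjusted p 0.0114 to 0.0308), and against derivation 3 (log2FC −1.01, adjusted p 0.0852). It was also lost with DESeq2 size factors (adjusted p 0.0110), without a filter on low counts (0.0120), with a stricter filter (0.0104) and with all groups in 1 fit (0.0441). It was 0, 5.48, 7.74, 2.31 and 10.4 CPM in uninjured cord and 0.989, 6.73, 1.48, 1.93 and 2.34 in NPC dSCI (adjusted p 0.0378), neither called. Against uninjured cord *Esrrb* was not called in NPC SCI (adjusted p 0.648) or NPC dSCI (adjusted p 0.793). In all, 2 of 4 members tested were called in uninjured cord (52.3% of all genes), 2 of 4 in NPC SCI (52%), 2 of 4 in NPC dSCI (50.9%) and 2 of 3 in NPC SCI 5d (57.7%).

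*Pou5f1*, *Zfp42*, *Dppa4* and *Dppa5a* had next to no counts in grafts. *Pou5f1* and *Zfp42* had 0 counts in all 20 graft libraries, *Dppa4* 1 count in 1 library and *Dppa5a* 3 counts in 1. With grafts set at the floor, *Pou5f1* was 20063-fold lower than in ESC in uninjured cord, 12256-fold in NPC SCI and 13430-fold in NPC dSCI. It was 3717-fold lower in the shallower NPC SCI 5d. The folds of the read-pair groups are not strict lower bounds and do not compare with that of NPC SCI 5d. *Pou5f1*, *Zfp42*, *Dppa4* and *Dppa5a* were at or under the floor in all 34 graft and host libraries, as were 26 of the 8896 genes with at least 10 CPM in ESC (0.292%). *Nanog* was above the floor in 10 of the 20 graft libraries. It was 0, 1.95, 1.61, 0.726 and 0.188 CPM in uninjured cord, the graft group with the highest mean (0.895 CPM), and 3.35, 0.363, 0, 0.148 and 0 in NPC dSCI. In NPC SCI it was at most 0.629 CPM and in NPC SCI 5d at most 0.335. *Utf1* had 26 counts in NPC dSCI replicate 4 and 0 in the other 4, and *Fgf4* had 36 counts in NPC SCI replicate 3 and 0 in the other 4.

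**Figure D4:**
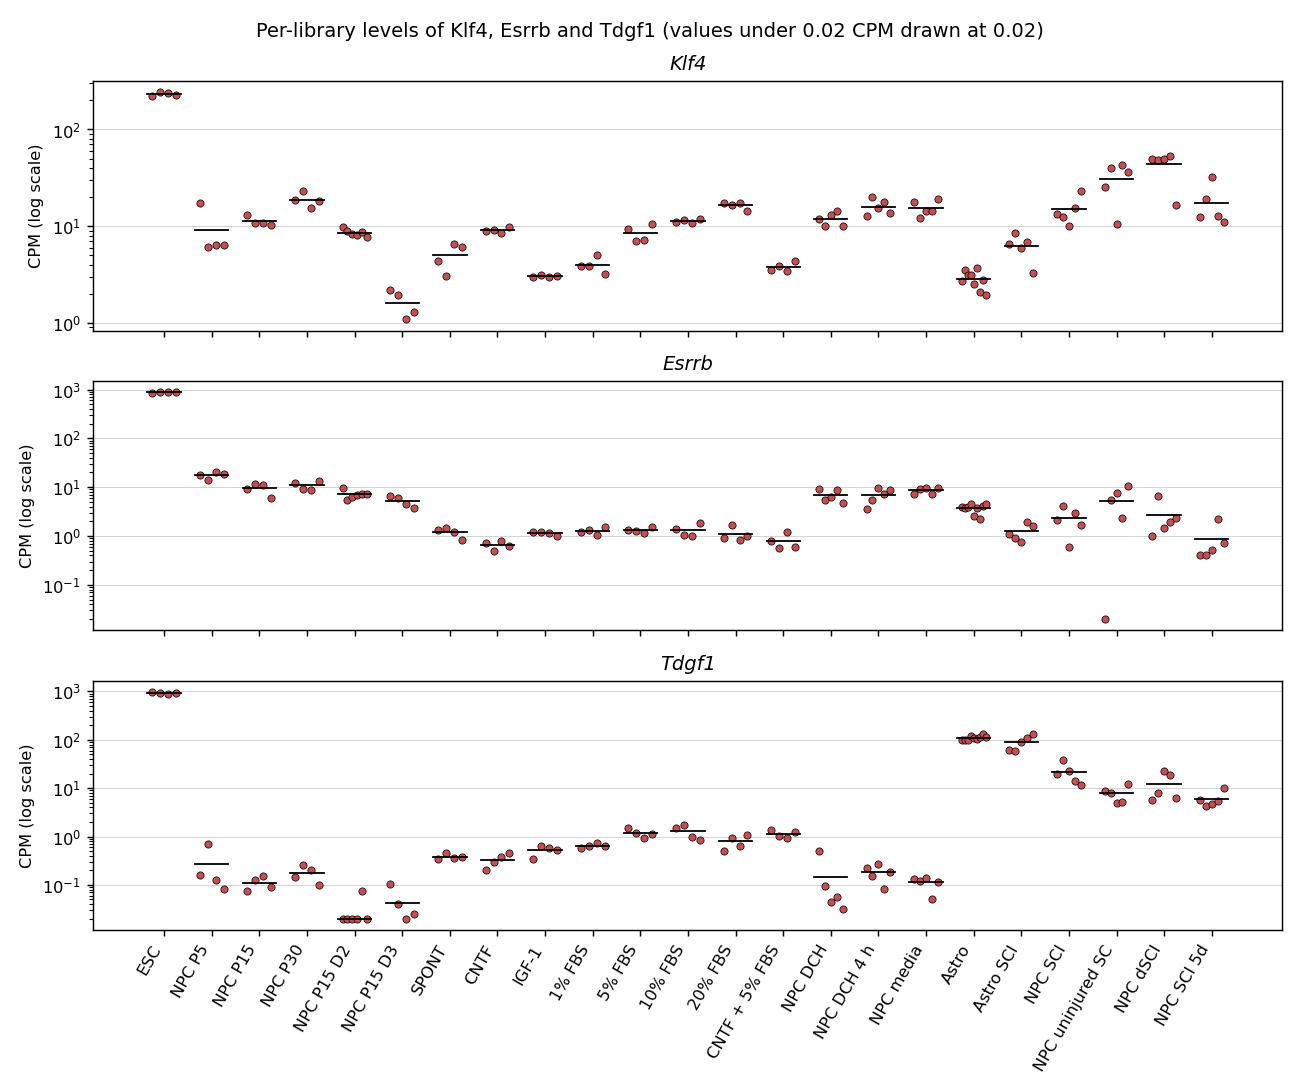
CPM (logarithmic axis) of *Klf4*, *Esrrb* and *Tdgf1* in every library by group, with group means as bars and values under 0.02 CPM drawn at 0.02. *Tdgf1* is 58.4 to 132 CPM in host astrocytes and 4.28 to 37.5 in grafts against at most 1.77 in cultures after ESC, and *Esrrb* is lower in differentiated cells than in NPC.

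Between graft environments, *Tdgf1* was higher in crush injury. NPC SCI exceeded uninjured cord (log2FC 1.66 ± 0.36, adjusted p 0.0091), with NPC SCI replicate 5 at 11.5 CPM inside the uninjured range, as 1 of 4 members tested against 4.64% of all genes. The call was lost without any 1 of 8 libraries, replicates 1 to 4 of either group (adjusted p 0.0139 to 0.0360). NPC SCI also exceeded NPC SCI 5d (log2FC 1.94 ± 0.33, adjusted p 0.0029) with no overlap, as 1 of 3 members tested against 5.3% of all genes, and this call was lost without NPC SCI 5d replicate 2 or 3 (adjusted p 0.0108 in both). The NPC SCI 5d libraries were taken as single reads and are shallower, so that read type, depth and recovery time cannot be told apart there. For NPC dSCI against uninjured cord edgeR called 0 of 4 members (4.19% of all genes), none had an unadjusted p below 0.05, and DESeq2 called 0.

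Set beside injured host astrocytes, NPC SCI had less *Tdgf1* and more *Klf4*. *Tdgf1* differed by a log2FC of −2.18 ± 0.32 (adjusted p 3.4e-04) with no overlap, and *Klf4* by 1.27 ± 0.31 (adjusted p 0.0095), also with no overlap, as 2 of 5 members tested against 14.6% of all genes. The *Klf4* call was lost without any 1 of the 5 Astro SCI libraries or NPC SCI replicate 1, 2, 4 or 5 (adjusted p 0.0119 to 0.0266), and without a filter on low counts (adjusted p 0.0112).

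The log2FC of single crush injury differed between grafts and hosts for *Klf4* and *Tdgf1*. In a fit of Astro, Astro SCI, NPC uninjured SC and NPC SCI together, added after the data had been seen, the injury log2FC in grafts minus that in hosts was −1.72 ± 0.42 for *Klf4* (adjusted p 0.0032) and 2.09 ± 0.36 for *Tdgf1* (adjusted p 9.3e-05), where 16.8% of 17536 genes were called. *Klf4* was higher after crush in hosts (mean 2.85 to 6.22 CPM) and lower, without being called, in grafts (31.1 to 14.9 CPM). *Tdgf1* was higher after crush in grafts (7.81 to 21.2 CPM) and lower, without being called, in hosts (110.2 to 89.8 CPM). NPC dSCI was not in this fit. Its *Klf4* mean of 43.6 CPM lay above that of uninjured cord, the direction seen in hosts, and its *Tdgf1* mean was 12.2 CPM. Neither was called against uninjured cord. In the fit of grafts and hosts, *Klf4* and *Tdgf1* stayed called without any 1 of the 24 libraries. The difference in log2FC then ran from −2.04 to −1.58 for *Klf4* and from 1.86 to 2.37 for *Tdgf1*. *Nanog*, *Esrrb* and *Fgf4* were tested and not called.

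**Figure D5:**
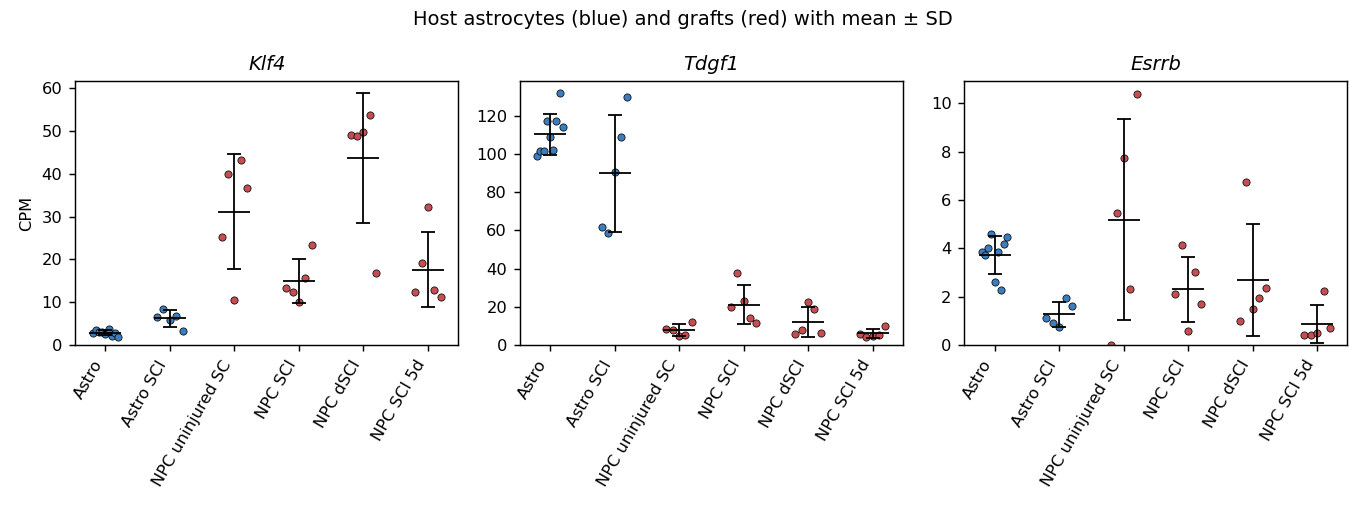
CPM of *Klf4*, *Tdgf1* and *Esrrb* in host astrocytes (blue) and grafts (red), 1 point a library with mean and SD. *Klf4* means are 2.85 and 6.22 CPM in healthy and injured hosts and 31.1, 14.9 and 43.6 in uninjured, crushed and double crushed cord grafts, while *Tdgf1* means are 110.2, 89.8, 7.81, 21.2 and 12.2.

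Markers of other cells differed among the same grafts. The endothelial sum was 38.3 to 357 CPM in uninjured cord, 24.2 to 72.6 in NPC SCI, 70.9 to 607 in NPC dSCI and 23.1 to 269 in NPC SCI 5d, against 1.39 to 2.38 in NPC P15. The fibroblast sum was 1693 to 4404, 1045 to 3871, 7211 to 27569 and 5920 to 17891 CPM in the same order, against 23.9 to 33.5 in NPC P15, and the myeloid sum 120.5 to 616, 185 to 660, 451 to 1959 and 144 to 2371, against 0.350 to 1.08. The neuron sum (*Snap25*, *Syt1*, *Rbfox3*, *Tubb3*, *Nefl*, *Stmn2*) was 1390 to 6628 CPM in uninjured cord, 541 to 747 in NPC SCI, 318 to 1539 in NPC dSCI and up to 1091 (median 148) in NPC SCI 5d, against at most 39.1 in NPC P15. For the neuron sum uninjured cord and NPC SCI did not overlap. In NPC SCI 3 of the 6 neuron markers were called lower than in uninjured cord, against 4.64% of all genes called in either direction. The astrocyte sum was 11125 to 17849, 10321 to 21961, 6462 to 12927 and 7553 to 25384 CPM. No marker of these lists was at 0 in all graft libraries, and the part of any of these cells in the levels of *Klf4*, *Esrrb* or *Tdgf1* was not tested.

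Ordered by mean over the 23 groups, neighbours mostly overlapped: 19 of 22 steps for *Klf4*, 20 for *Esrrb* and 19 for *Tdgf1*. *Klf4* was apart between ESC and NPC dSCI, between NPC P15 and CNTF, and between CNTF + 5% FBS and IGF-1. *Esrrb* was apart between ESC and NPC P5 and between NPC P5 and NPC P30. *Tdgf1* was apart between ESC and Astro, between Astro SCI and NPC SCI, and between NPC SCI 5d and 10% FBS.

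Outside ESC, some genes followed the 4 members with the most measurable levels over the 22 group means of log2(CPM + 1). *Tdgf1* ran closest with *Erv3* (Pearson r 0.985), *Ppp1r36* (0.977) and *Gabrb1* (0.977), which peaked in host astrocytes as it did. *Esrrb* ran with *Creb5* (0.938), *Larp1* (0.930) and *Ankrd26* (0.927), *Klf4* with *Crybg1* (0.896) and *Klf2* (0.821), the latter a KLF factor of the naive network, and *Nanog* with *Rfk* (0.873), *Wdr78* (0.834) and *2810002D19Rik* (0.832). The points share libraries and depth classes, and these values describe the 22 groups only.

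Over the 22 comparisons without ESC, *Esrrb* was called lower in 6 and higher in 0, *Klf4* higher in 8 and lower in 4, and *Tdgf1* higher in 8 and lower in 1. The share of all genes called in these comparisons ran from 0.32% to 57.7%. Many of them share reference libraries, such as those of NPC P15 and SPONT, so the tallies do not count separate support. Several of the calls were lost on leaving out 1 library. *Nanog* was tested in 17 of the 22 and called in 0 by edgeR, with an unadjusted p below 0.05 in 5 and calls by DESeq2 in 2 (10% FBS, and CNTF with 5% FBS), and *Pou5f1*, *Zfp42* and *Dppa4* did not pass the filter on low counts in any.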

How the data were processed

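Ribosome-bound RNA of tagged cells was purified with the RiboTag protocol and sequenced in 23 groups of libraries. The authors deposited raw counts of reads per gene for each library. Per the study's methods and the submitters' processing notes, reads were trimmed with Trimmomatic, aligned to mm10 with HISAT2 and counted per Entrez gene with featureCounts at default settings; replicates were not pooled, and both mates of a pair were counted. Strand-specific counting is not given in the sources used here. All columns were mapped to a sample, and no 2 libraries held identical values.

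Groups follow the sample titles. Symbols were matched to Entrez identifiers through RefSeq tables, which named 25275 of 27179 genes. CPM is the count divided by the library's total count, times 1000000. Each of 27 comparisons was fitted on the libraries of its own groups with the quasi-likelihood test of edgeR 4.0.16 in R 4.3.3 (TMM scaling, filterByExpr with a minimum count of 10), p-values were adjusted over all genes tested by the Benjamini-Hochberg method, and a gene was called at an adjusted p below 0.01. The adjusted p-values in the text come from this test unless DESeq2 1.42.0 is named. Where every library of a group had at most 3 counts, a fold is given as a lower bound against 3 counts in the shallowest library. That bound covers counting error alone, and in full only for single reads. With both mates of a pair counted, 3 counts are fewer fragments, so folds of paired groups are not strict bounds. Log2FC errors are SE and errors of means are SD. Nothing in the labels says that replicates were separate cultures, so p-values for cultures measure the spread between libraries, which may be technical.

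The 10 members and the gene lists were chosen with earlier results of these data known. All members were named in every group. Other genes came from the lists, with at most 4 examples each, or were the 3 genes whose group means correlated best with a member, among members and genes reaching 1 CPM outside ESC. For *Klf4*, 1 of the 3 is not reported here, nor is 1 list of cell markers. The replicate numbers were checked for pairing by the correlation of deviations from group means, which exceeded 0.1 for every pair only in 5% FBS against SPONT (0.115 to 0.319). The alternatives tried were DESeq2 size factors, the DESeq2 test, no filter or a minimum count of 50, all groups of an experiment in 1 fit, NPC P15 D2 or NPC P15 D3 as the reference, a replicate block, a threshold of 0.05, and leaving out each library in turn (the 9 of Astro only in the added interaction test). On counts simulated for SPONT against NPC P15, the test recovered 197 of 200 changed genes with 1 false call among 15050 genes. The simulation gave all genes the same dispersion and changed only genes above a count limit, by large folds. It therefore does not cover members near 0 counts, small log2FC or the wider spread of grafts. Plots and tables were made with Python 3.11.15.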

Additional observations from a re-analysis of the deposited data

Results flagged for a closer look

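Among 66 sets of a member in a group of 4 to 10 libraries with a mean of at least 1 CPM, 6 had a library set apart from the rest by Dixon's criterion, which chance alone meets in about 1 of 20 groups. *Esrrb* was 839 CPM in ESC replicate 1 and 879 to 883 in the other 3. *Klf4* was 17.2 CPM in NPC P5 replicate 1 and 6.11 to 6.44 in the other 3. *Nanog* was 1.67 CPM in 5% FBS replicate 2 and 1.24 to 1.31 in the other 3. *Esrrb* was 6.73 CPM in NPC dSCI replicate 2 and 0.989 to 2.34 in the other 4. *Klf4* was 16.7 CPM in NPC dSCI replicate 5 and 48.9 to 53.7 in the other 4. *Tdgf1* was 9.98 CPM in NPC SCI 5d replicate 5 and 4.28 to 5.78 in the other 4.

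The single crush contrast differed between grafts and host astrocytes for *Klf4* (log2FC difference −1.72, adjusted p 0.0032, edgeR interaction test) and for *Tdgf1* (2.09, adjusted p 9.3e-05), in a test chosen after seeing the data. NPC dSCI, where the *Klf4* mean lay above uninjured cord, was not in that test.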

How the results depend on the processing

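All 10 members were called lower in the 5 NPC groups than in ESC under every alternative run. Those near 0 counts in NPC could only come out lower. Of the 22 comparisons without ESC, some changed their number of called members, and the causes were not tested. With the DESeq2 test it was 1 for NPC P30 against NPC P5 (2 in the report), 2 each for CNTF, 5% FBS and 20% FBS against SPONT (1 each) and 3 for CNTF + 5% FBS against 5% FBS (1). DESeq2 size factors, and likewise the stricter filter, gave 2 for CNTF + 5% FBS and 1 for NPC SCI against NPC P15 (2). Without a filter it was 2 for 20% FBS, 1 for NPC SCI against NPC P15 and 1 for NPC SCI against Astro SCI (2). With all groups in 1 fit it was 0 for NPC P15 D2 against NPC P15 (1), 4 for NPC P15 D3 against NPC P15 (2), 4 for SPONT against NPC P15 (2), 1 for IGF-1 (0), 2 each for 5% and 20% FBS and 1 for Astro SCI against Astro (2). Of the 4 for NPC P15 D3, *Dppa5a* and *Fgf4* passed the filter through ESC. At an adjusted p below 0.05 it was 2 for NPC P15 D2 against NPC P15, CNTF and 20% FBS, 1 for IGF-1, and 3 for 5% FBS and CNTF + 5% FBS. With NPC P15 D3 as the reference, *Klf4* was higher in SPONT (log2FC 1.69), where it was lower than in NPC P15.

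Leaving out 1 library gave 0 to 2 calls for NPC P15 D2 against NPC P15, 0 to 1 for CNTF, IGF-1, NPC SCI against NPC uninjured SC and NPC SCI against NPC SCI 5d, 1 to 3 for NPC SCI against Astro SCI, 2 to 3 for Astro SCI against Astro and NPC dSCI against NPC P15, and 1 to 2 for NPC P30 against NPC P5, NPC P15 D3 against NPC P15, 20% FBS, CNTF + 5% FBS, and NPC uninjured SC and NPC SCI against NPC P15.

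In 5% FBS against SPONT, where the replicate numbers paired the libraries, the replicate block left the member count at 1. Elsewhere libraries shared only a number, and the block gave 0 for NPC P15 D2 against NPC P15, NPC SCI against NPC uninjured SC and NPC SCI against NPC SCI 5d, and 1 for Astro SCI against Astro, NPC uninjured SC and NPC SCI against NPC P15, and NPC SCI against Astro SCI; it left the other 20 comparisons within 1.5 times. Depth limits the members near 0 counts, most in the 11 single-read libraries.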
